A study of Mus musculus with 6 samples.

Results

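The immunoglobulin light chain genes described here are the kappa constant gene Igkc (ENSMUSG00000076609), the lambda constant genes Iglc1 (ENSMUSG00000105906), Iglc2 (ENSMUSG00000076937) and Iglc3 (ENSMUSG00000105547), and the lambda variable genes Iglv1 (ENSMUSG00000076934), Iglv2 (ENSMUSG00000076940) and Iglv3 (ENSMUSG00000076939). They were chosen by symbol, and each symbol matched 1 feature, so that the 7 genes were 7 of the 31053 features measured. The choice was made with earlier results of these libraries known, so their high levels in plasma-lineage cells are given as a description. The question asked of them was how kappa and lambda transcripts are used across B-cell states and across libraries.

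Single cell RNA-seq had been performed on 6 mouse libraries labelled as germinal center (GC) B cells, and all came from mice with the Cgamma1-Cre allele. In 3 libraries the genotype was given as the wild-type control (Smc3 wt/wt), and in 3 as Smc3 +/- (Smc3 wt/- below), a deletion of 1 copy of the gene for a core subunit of cohesin. The methods describe cells sorted from spleens of mice immunized with sheep red blood cells, and the labels name the cells GC B cells. Cre is driven from the Ighg1 locus and acts in B-cells that enter the GC reaction, so that naive B-cells of the same mice need not carry the deletion. The labels gave no age for the mice. UMIs (unique molecular identifiers, each standing for 1 captured transcript molecule) of a 3′ kit were deposited, and such a kit also counts transcripts without the deleted exon, so the Smc3 counts do not check the deletion.

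Every B-cell carries a receptor of paired heavy and light chains. A light chain is made when a variable (V) and a joining (J) segment are joined next to a constant (C) gene, either in the kappa locus or in the lambda locus. Rearrangement of kappa usually precedes that of lambda, and one of the loci is then normally silenced or non-functional, so a B-cell shows 1 kind of light chain on its surface. In the mouse most B-cells use kappa. Of the lambda genes, Iglv1 is usually joined to Iglc3 or Iglc1, and Iglv2 and Iglv3 mostly to Iglc2. In a GC, B-cells move between a proliferating dark zone state (centroblasts) and a selecting light zone state (centrocytes), and those that leave as plasmablasts (PB) and plasma cells (PC) secrete the chains as antibody.

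In GRCm38 Igkc lies on chromosome 6 (chr6:70726435-70726966, plus strand), and the lambda genes lie on the minus strand of chromosome 16, in the order of transcription Iglv2 (chr16:19260401-19260859), Iglv3 (chr16:19241207-19241690), Iglc2 (chr16:19198396-19200351), Iglv1 (chr16:19085017-19085500), Iglc3 (chr16:19065230-19065681) and Iglc1 (chr16:19061618-19062071). In the GENCODE annotation each constant gene is 1 exon and each variable gene has 2. Counts can be told apart between members only as far as their sequences differ, and the following coding bases of the last exon are shown for that reason, the last 300 of them per gene, 5′ to 3′ on the minus strand. For Iglc1 they span chr16:19061755-19062054, and the 75 capitals mark bases that differ from Iglc2. The next pair, Iglc2 (chr16:19198539-19198838) and Iglc3 (chr16:19065368-19065667), have 11 capitals each where one differs from the other.
Iglc1: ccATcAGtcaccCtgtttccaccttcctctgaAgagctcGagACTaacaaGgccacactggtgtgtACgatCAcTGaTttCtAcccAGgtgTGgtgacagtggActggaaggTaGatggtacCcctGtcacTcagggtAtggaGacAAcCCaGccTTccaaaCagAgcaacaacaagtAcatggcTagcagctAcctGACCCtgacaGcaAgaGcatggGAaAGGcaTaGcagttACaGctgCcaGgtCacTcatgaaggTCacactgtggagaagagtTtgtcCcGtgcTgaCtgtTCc
Iglc2: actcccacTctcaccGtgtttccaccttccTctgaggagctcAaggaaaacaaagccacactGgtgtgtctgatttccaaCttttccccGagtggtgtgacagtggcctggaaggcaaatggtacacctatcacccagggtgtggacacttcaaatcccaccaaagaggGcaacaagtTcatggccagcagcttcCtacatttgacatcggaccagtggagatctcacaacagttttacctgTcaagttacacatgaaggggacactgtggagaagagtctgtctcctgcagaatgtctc
Iglc3: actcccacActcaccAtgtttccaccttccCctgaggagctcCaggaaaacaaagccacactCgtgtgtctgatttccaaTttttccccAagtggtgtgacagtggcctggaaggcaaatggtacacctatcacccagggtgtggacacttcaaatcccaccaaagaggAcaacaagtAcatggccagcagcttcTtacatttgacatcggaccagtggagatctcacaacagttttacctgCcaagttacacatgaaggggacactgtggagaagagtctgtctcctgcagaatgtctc
Over the whole coding part of the exon, Iglc2 and Iglc3 were identical at 96.5% of aligned positions, and the longest stretch that their transcripts shared was 79 bases. Iglc1 and Iglc2 were identical at 74.8%, with a longest shared stretch of 19 bases. The variable genes Iglv1 (chr16:19085017-19085316) and Iglv2 (chr16:19260401-19260700) are shown in the same way, with capitals at the 8 bases where one differs from the other.
Iglv1: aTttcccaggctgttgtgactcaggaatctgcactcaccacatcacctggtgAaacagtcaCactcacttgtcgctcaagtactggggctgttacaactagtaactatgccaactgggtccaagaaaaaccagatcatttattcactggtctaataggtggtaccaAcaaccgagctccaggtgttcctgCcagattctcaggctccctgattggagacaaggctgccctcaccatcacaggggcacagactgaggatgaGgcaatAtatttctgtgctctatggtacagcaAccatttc
Iglv2: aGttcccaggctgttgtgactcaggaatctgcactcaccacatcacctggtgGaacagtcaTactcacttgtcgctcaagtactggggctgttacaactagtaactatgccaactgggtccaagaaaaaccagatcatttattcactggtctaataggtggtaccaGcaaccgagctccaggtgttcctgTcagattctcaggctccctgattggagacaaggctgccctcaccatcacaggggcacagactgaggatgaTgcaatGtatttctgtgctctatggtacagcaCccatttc
They were identical at 97.0% of positions, with a longest shared stretch of 104 bases. The division of UMIs within the pair Iglc2 and Iglc3, and within the pair Iglv1 and Iglv2, is therefore uncertain. The sum over the lambda constant genes does not depend on how shared reads are divided, but it would be too low, and the share of Iglc1 too high, if such reads were left uncounted. The 3′ end of a joined light chain transcript lies in the constant gene, so variable genes are counted only from reads that reach the V exon, and V and C levels are not on a common scale.

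Cells were grouped into states by clustering without immunoglobulin genes, and a state name ends in "-like" because it rests on transcripts alone. Of 20809 cells kept, 1860 were naive or memory B-like, 4647 S-phase GC B-like, 5543 centroblast-like (CB-like), 1361 centrocyte-like (CC-like), 834 recycling-like (light zone cells with Myc target genes), 625 PB-like and 1441 PC-like. The 4 GC states together held 12385 GC B-like cells, and PB-like and PC-like cells together 2066 plasma-lineage cells. The 16 naive or memory markers summed to 4195 to 5140 CPM (UMIs scaled to a common total for each state in each library) in naive or memory B-like cells and to at most 1916 CPM in any GC state, but to 1625 to 4080 CPM in T cell-like cells, and the 19 plasma lineage markers summed to 89478 and 108545 CPM in PC-like cells of the 2 libraries with at least 20 of them (Smc3 wt/wt replicate 3 and Smc3 wt/- replicate 2). Jchain, whose product joins antibody monomers, was alone at 83203 to 102512 CPM in these PC-like cells. Their plasma lineage sum was thus mostly Jchain. Clusters of 531 T cell-like and 749 myeloid-like cells, which should lack light chains, served as the background. A further 3166 cells in a cluster led by haemoglobin genes received no name and were left out of the comparisons. They had B-cell levels of Cd79a (2433 ± 269 CPM, SD, n = 6) and light chains of their own, with 10910 to 175451 CPM of Igkc, and 2009 of them would be called kappa, 95 lambda and 978 mixed by the rule used for the other states.

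Smc3 wt/- replicate 2 stood apart from the others. The 7 light chain genes made up 39.5% of its UMIs and all immunoglobulin genes 52.9%, where the ranges over the remaining libraries were 1.83% to 2.82% and 2.42% to 3.93%. From it came 1369 of the 1441 PC-like cells and 646 of the 749 myeloid-like cells, but only 371 of the 12385 GC B-like cells. Smc3 itself was at 28.4 CPM in that library and at 145 to 160 CPM in the others. Library totals ran from 5223325 to 35354257 UMIs, and 276 barcodes occurred in more than 1 library. Xist and Y-linked transcripts put replicates 1 and 2 of Smc3 wt/wt and replicate 2 of Smc3 wt/- with males and the rest with females, so sex differed within both genotypes. Nothing in the sources used here says more of how the mice were matched, and p-values measure the spread between these libraries.

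Igkc was the most abundant member in every state. In PC-like cells it was at 469177, 502392 and 451150.4 in Smc3 wt/wt replicates 1 to 3 and 417350.3, 490173 and 420845 in Smc3 wt/- replicates 1 to 3 CPM. In PB-like cells it was at 102884, 104318 and 80735 in Smc3 wt/wt replicates 1 to 3 and 73516, 297322 and 117842 in Smc3 wt/- replicates 1 to 3 CPM. The level in GC B-like cells was 8247, 9578 and 9640.2 in Smc3 wt/wt replicates 1 to 3 and 8858, 20700.3 and 9635 in Smc3 wt/- replicates 1 to 3 CPM. PC-like and PB-like cells lay above GC B-like cells in 6 of 6 libraries, and the states did not overlap. Within a library the PC-like level was 23.7 to 56.9 times the GC B-like level (median 46.96), the PB-like level was 8.30 to 14.4 times it (median 11.6), and PC-like cells had 1.65 to 5.68 times the PB-like level. With n = 6 the means were 458515 ± 35239 (SD) CPM in PC-like and 129436 ± 83851 CPM in PB-like cells, where Smc3 wt/- replicate 2 was the highest. Because Igkc makes up so large a share of PC transcripts, CPM understates the ratio between states: scaled in the same way to the UMIs that are not of immunoglobulin genes, the means were 1507832 ± 98058 in PC-like and 183020 ± 172972 in PB-like cells, in the same order in 6 of 6 libraries.

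Before the plasma stage Igkc differed less. In naive or memory B-like cells it was at 11464, 12989 and 11894 in Smc3 wt/wt replicates 1 to 3 and 13718, 18825 and 12423 in Smc3 wt/- replicates 1 to 3 CPM, which is 0.909 to 1.55 times the GC B-like level of the same library and higher in 5 of 6 libraries, the exception being Smc3 wt/- replicate 2. Among the GC states, CB-like cells had 1.42 to 1.60 times the Igkc level of recycling-like cells, in 6 of 6 libraries. The level in CB-like cells was above that of S-phase cells in 5 of 6 libraries. CC-like cells were below CB-like cells in 5 of 6 libraries, and in Smc3 wt/- replicate 2 they reached 32148 CPM against 7954 to 8815 CPM elsewhere. A single cell held 18.1% of the Igkc UMIs of GC B-like cells in that library. Naive, CC-like, CB-like and S-phase cells, with means of 13552 ± 2703, 12341 ± 9708, 11920 ± 3475 and 10799 ± 4465 CPM (SD, n = 6), overlap only through Smc3 wt/- replicate 2 or between S-phase and CC-like cells. Without that library Igkc ran from 11464 to 13718 CPM in naive, 9466 to 11197 in CB-like, 8243 to 9431 in S-phase and 7954 to 8815 in CC-like cells, so that S-phase and CC-like cells were the neighbours in the order whose ranges overlapped.

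The background of Igkc was low in 4 libraries. T cell-like cells carried 598, 1353, 637 and 694 CPM of Igkc in replicates 1 and 2 of Smc3 wt/wt and replicates 1 and 3 of Smc3 wt/-. In Smc3 wt/wt replicate 3 the value was 9593 CPM, of which 1 cell held 96.6%, and in Smc3 wt/- replicate 2 it was 35853 CPM, of which 1 cell held 81.8%. Myeloid-like cells carried 380 to 2973 CPM of Igkc in 5 libraries and 17273 CPM in Smc3 wt/- replicate 2. In the latter library every T cell-like cell had an Igkc UMI, with a median of 13.5 per cell, against 30.7% to 61.0% of T cell-like cells and a median of at most 1 in the others. T cell-like cells had a median depth of 1654 UMIs, against 2468 in naive or memory B-like and 6124 in GC B-like cells. The Igkc level of GC B-like and naive cells in Smc3 wt/- replicate 2 thus stands beside a raised background in the same library, and the part of that background in it was not tested.

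**Figure D1:**
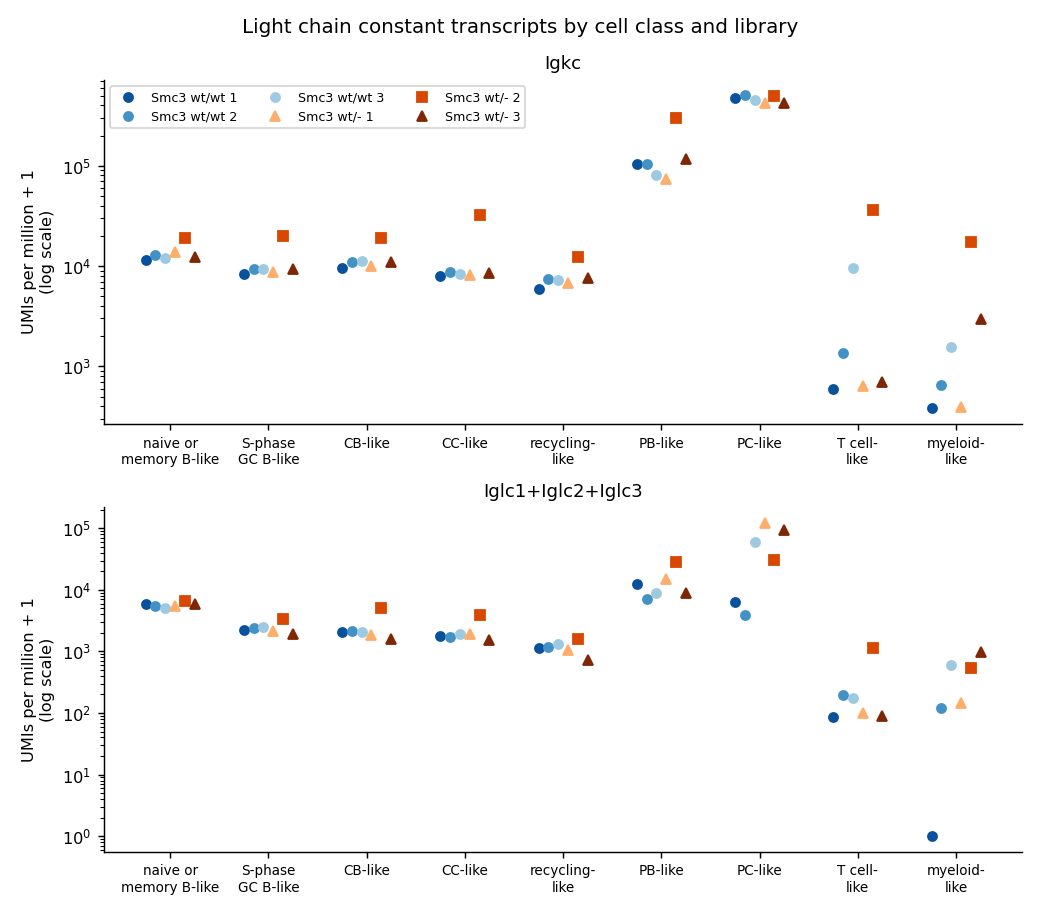
Levels of Igkc and of the summed lambda constant genes in CPM (log axis) in each cell state, 1 point per library, with the 2 genotypes in different colours. Igkc in PC-like cells lies between 417350 and 502392 CPM in all 6 libraries, while the lambda sum of PC-like cells spreads from 3884 to 121825 CPM.

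The lambda constant genes followed another order. Summed over Iglc1, Iglc2 and Iglc3, naive or memory B-like cells had 6012, 5392 and 5099 in Smc3 wt/wt replicates 1 to 3 and 5377, 6665 and 5801 in Smc3 wt/- replicates 1 to 3 CPM. GC B-like cells had 1945, 2034 and 2044 in Smc3 wt/wt replicates 1 to 3 and 1788, 3669.7 and 1561 in Smc3 wt/- replicates 1 to 3 CPM. Naive cells were above GC B-like cells in 6 of 6 libraries, by 1.82 to 3.72 times (median 2.83), a wider gap than that of Igkc. Each lambda constant gene showed it: the naive level was 1.56 to 2.86 times the GC B-like level for Iglc1, 2.07 to 11.9 times for Iglc2 and 1.96 to 2.82 times for Iglc3, in 6 of 6 libraries each. Recycling-like cells were the lowest of the B-cell states, at 732 to 1591 CPM, and S-phase cells exceeded them by 1.86 to 2.66 times in 6 of 6 libraries. The background of this sum (Iglc1+Iglc2+Iglc3) in T cell-like cells was 86.6 to 193 CPM in 5 libraries and 1153 CPM in Smc3 wt/- replicate 2. In myeloid-like cells it was 0 to 964 CPM, the highest in Smc3 wt/- replicate 3, where 27 cells held 73 lambda UMIs and GC B-like cells were at 1561 CPM.

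In PC-like cells the lambda sum varied far more between libraries than Igkc did. It was at 6406, 3884 and 59035 in Smc3 wt/wt replicates 1 to 3 and 121825, 30838 and 95268 in Smc3 wt/- replicates 1 to 3 CPM, a span within which the 3 Smc3 wt/wt and the 3 Smc3 wt/- libraries overlap. PB-like cells had 12434, 7204 and 8814 in Smc3 wt/wt replicates 1 to 3 and 15316, 28419 and 9039 in Smc3 wt/- replicates 1 to 3 CPM. The PC-like level exceeded the GC B-like level in 6 of 6 libraries, by 1.91 to 68.2 times, but exceeded the PB-like level in only 4 of 6. Scaled to the UMIs that are not of immunoglobulin genes, the lambda sum was higher in PC-like than in PB-like cells in 6 of 6 libraries, with means of 178800.0 ± 169266 and 18816 ± 16109 (SD, n = 6). These sums rest on few cells. Outside Smc3 wt/- replicate 2 there were 10 to 22 PC-like cells per library, and 1 cell held 34.3% to 68.0% of the lambda constant UMIs of all plasma-lineage cells, against 2.43% in that library with its 1738 plasma-lineage cells. The lambda sum of plasma-lineage cells in those 5 libraries thus rests in large part on single cells.

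The share of lambda among the light chain constant UMIs (Igkc and the 3 lambda genes) was highest in naive or memory B-like cells, lower in GC B-like cells and, in 5 of 6 libraries, lowest in plasma-lineage cells. In naive or memory B-like cells it was 34.4, 29.3 and 30.01 in Smc3 wt/wt replicates 1 to 3 and 28.2, 26.1 and 31.8 in Smc3 wt/- replicates 1 to 3 percent. GC B-like cells had 19.1, 17.5 and 17.5 in Smc3 wt/wt replicates 1 to 3 and 16.8, 15.1 and 13.9 in Smc3 wt/- replicates 1 to 3 percent. In plasma-lineage cells it was 5.05, 3.60 and 10.96 in Smc3 wt/wt replicates 1 to 3 and 19.6, 6.18 and 11.8 in Smc3 wt/- replicates 1 to 3 percent. The naive share was above the GC B-like share in 6 of 6 libraries, by 11.1 to 17.9 percentage points, and above the plasma-lineage share in 6 of 6. The plasma-lineage share was below the GC B-like share in 5 of 6 libraries, the exception being Smc3 wt/- replicate 1. After every cell had been thinned to 2000 UMIs, which leaves out 702 of the 1860 naive and 234 of the 12385 GC B-like cells as too shallow, naive stayed above GC B-like in 6 of 6 libraries (by 6.98 to 16.7 points) and plasma-lineage was below GC B-like in 6 of 6. Within the GC the S-phase share exceeded the recycling-like share in 6 of 6 libraries, by 3.11 to 8.36 points, and by 5.28 to 8.22 points in thinned cells.

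**Figure D2:**
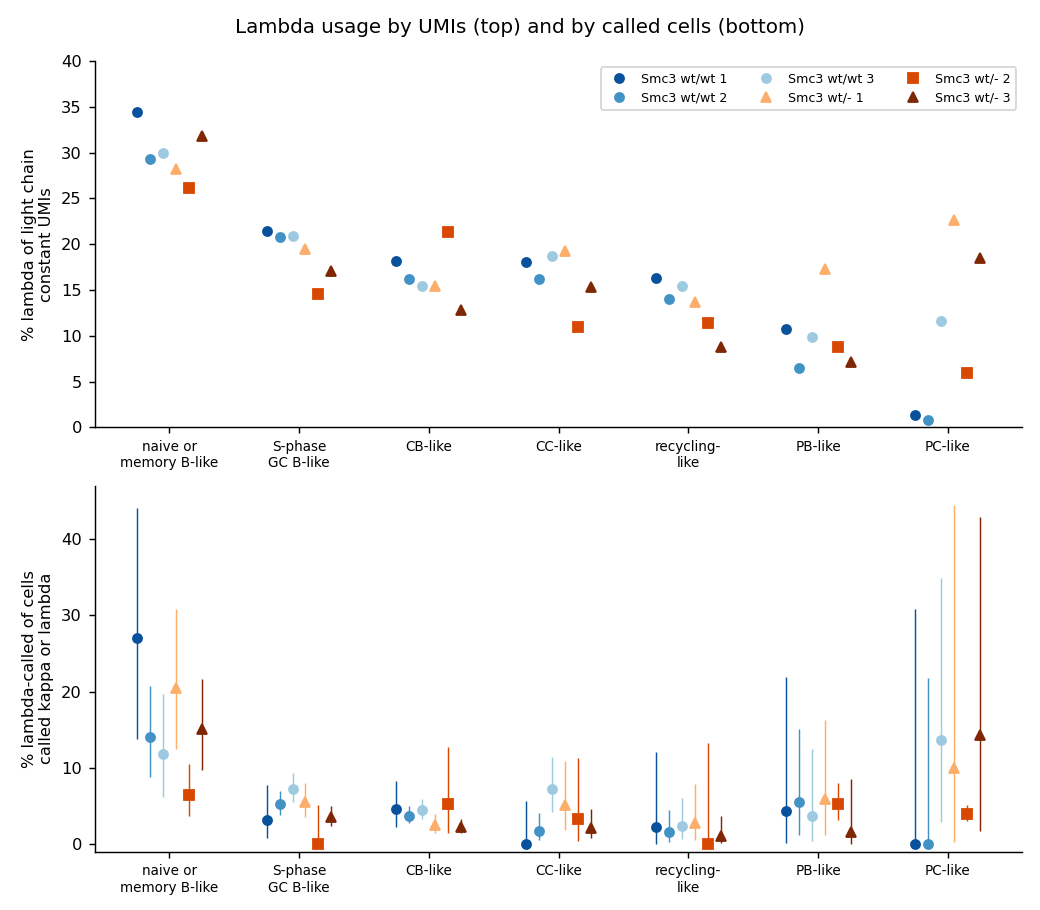
Share of lambda constant UMIs among all light chain constant UMIs (percent) and share of cells called lambda among cells called kappa or lambda (percent) by cell state, 1 point per library. The naive or memory B-like libraries lie at 26.1 to 34.4 percent of UMIs. With the GC states pooled as GC B-like cells, the libraries lie lower, at 13.9 to 19.1 percent.

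The share of UMIs does not say how many cells use lambda. A cell with at least 10 light chain constant UMIs was therefore called kappa where at least 80% of them were Igkc, lambda where at least 80% were from the lambda genes, and mixed otherwise. Of 12277 GC B-like cells with enough UMIs, 8888 were called kappa, 356 lambda and 3033 mixed. Of 1847 naive or memory B-like cells, 652 were called kappa, 97 lambda and 1098 mixed. Of 2066 plasma-lineage cells, 1959 were called kappa, 89 lambda and 18 mixed. Mixed cells thus made up 59.4% of naive, 24.7% of GC B-like and 0.871% of plasma-lineage cells, with the naive share above the GC share in 6 of 6 libraries and the GC share above the plasma-lineage share in 6 of 6. Thinning to 2000 UMIs left this order in place, with 60.7%, 25.1% and 0.683%. Within the GC, mixed cells were 31.7% of S-phase, 20.9% of CB-like, 23.8% of CC-like and 11.9% of recycling-like cells, and thinned 29.9%, 22.1%, 25.5% and 16.7%.

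Lambda-called cells were a minority of the called cells in every state. Among cells called kappa or lambda, 13.0% of naive or memory B-like cells were lambda (95% exact Clopper-Pearson interval 10.6% to 15.6%), against 3.85% of GC B-like cells (3.47% to 4.26%) and 4.35% of plasma-lineage cells (3.50% to 5.32%). These intervals cover counting error only. The shares leave out mixed cells, which were most frequent among naive cells, and this raises the naive share most. By the counts above, over all cells with enough UMIs the pooled naive share stays the highest. It lies far nearer there to that of plasma-lineage cells. By library the naive share was 27.0, 14.0 and 11.8 in Smc3 wt/wt replicates 1 to 3 and 20.5, 6.49 and 15.03 in Smc3 wt/- replicates 1 to 3 percent. For GC B-like cells the values were 3.32, 3.86 and 5.54 in Smc3 wt/wt replicates 1 to 3 and 3.75, 2.55 and 2.62 in Smc3 wt/- replicates 1 to 3 percent. Naive exceeded GC B-like in 6 of 6 libraries unthinned and in 5 of 6 thinned, where the pooled naive share was 8.83%. In plasma-lineage cells the share was 3.03, 4.29 and 6.49 in Smc3 wt/wt replicates 1 to 3 and 6.56, 4.22 and 3.90 in Smc3 wt/- replicates 1 to 3 percent, from 1, 3, 5, 4, 73 and 3 lambda-called cells in that order, and it was above the GC B-like share in 5 of 6 libraries by at most 2.81 points. Without Smc3 wt/- replicate 2 the pooled shares were 15.8%, 3.89% and 5.03%. The order of GC B-like and plasma-lineage cells thus differs between the share of UMIs, which weights a cell by its transcripts, and the share of cells.

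Among GC states the pooled lambda-called share was 5.06% (4.33% to 5.89%) in S-phase, 3.42% (2.90% to 4.005%) in CB-like, 3.42% (2.39% to 4.73%) in CC-like and 1.78% (0.949% to 3.02%) in recycling-like cells. Recycling-like cells rest on 13 lambda-called cells. S-phase exceeded recycling-like cells in 5 of 6 libraries unthinned and in 4 of 6 thinned, so the order of the GC states was not the same in every library. PB-like cells had 4.73% (3.19% to 6.72%) and PC-like cells 4.18% (3.21% to 5.35%). In myeloid-like cells 0 of 555 called cells were lambda (exact upper limit 0.662%), and in T cell-like cells 0 of 120 (exact upper limit 3.03%). Of the 555 myeloid-like calls, 553 came from Smc3 wt/- replicate 2, where the Igkc background was raised, and the part of that background in them was not tested.

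A mixed call depends on the 80% limit. Between 15% and 25% lambda lay 561 naive or memory B-like cells (30.4% of those with enough UMIs) and 2817 GC B-like cells (22.9%), but 5 plasma-lineage cells. Between 75% and 85% lambda lay 31, 81 and 1. The mixed class is a range next to the kappa class, and its lower border cuts through many naive cells, while the border to lambda passes few cells.

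**Figure D3:**
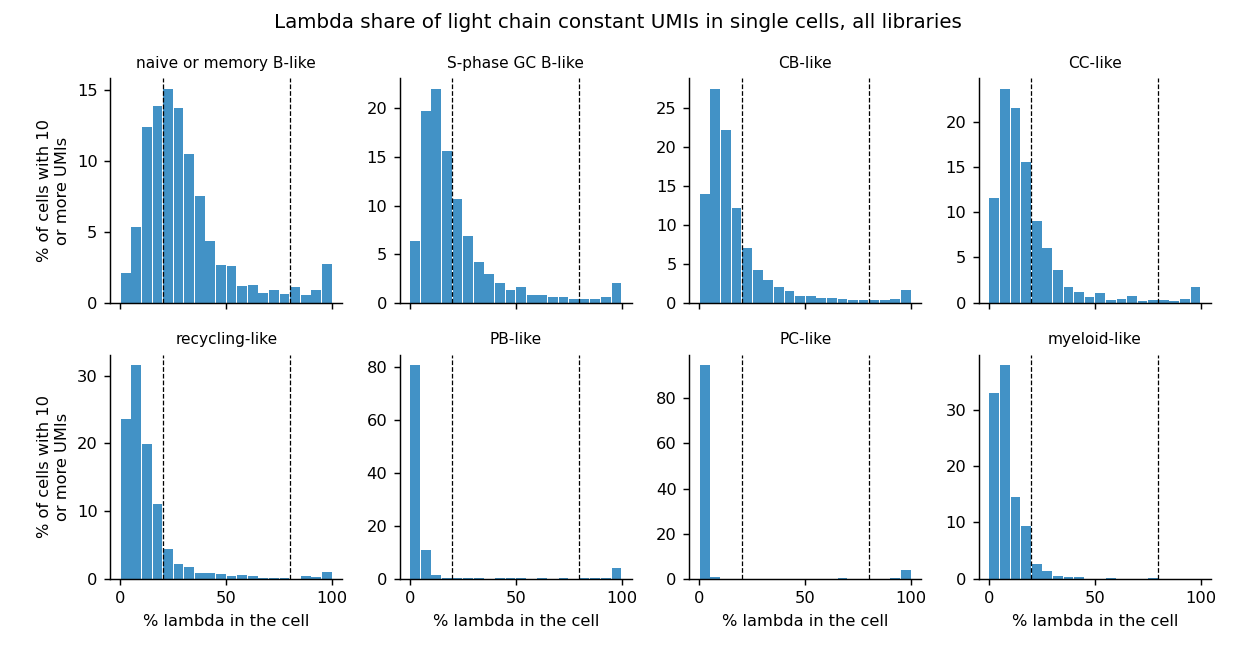
Distribution over cells of the lambda percentage of light chain constant UMIs by cell state, for cells with at least 10 such UMIs. The limits of 20 and 80 percent are drawn. Naive cells spread across the lower limit, with 59.4 percent of them between the limits. With PB-like and PC-like cells pooled as plasma-lineage cells, 0.871 percent lie there.

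In cells called for one class the other class was still counted. Kappa-called GC B-like cells had a median of 71 Igkc and 8 lambda constant UMIs, mixed ones 34 and 15, and lambda-called ones 3 and 71. Kappa-called naive or memory B-like cells had medians of 42 and 7, mixed ones 31 and 15, and lambda-called ones 2 and 49. In PC-like cells the medians were 7986 and 63 for kappa-called and 119.5 and 9706 for lambda-called cells. A lambda constant UMI was found in 99.0% to 100% of naive or memory B-like cells, with a mean of 17.0 to 19.96 per cell. In T cell-like cells it was found in 10.7% to 18.3%, with a mean of 0.147 to 0.436, in the 5 libraries other than Smc3 wt/- replicate 2, where it was found in 76.8%, with a mean of 3.51. The lambda UMIs of naive cells were thus well above the background of T cell-like cells of the same library in all 6 libraries.

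The 3 lambda constant genes shared the lambda UMIs differently between states. In naive or memory B-like cells Iglc1 held 33.0% ± 5.73 (SD, n = 6), Iglc2 36.5% ± 4.25 and Iglc3 30.5% ± 1.86. In GC B-like cells Iglc1 held 46.6% ± 2.45, Iglc2 18.8% ± 6.96 and Iglc3 34.5% ± 6.003. Iglc2 was the lowest of the genes in 5 of 6 libraries in GC B-like cells, with Smc3 wt/- replicate 2 as the exception, and in 0 of 6 in naive cells. In plasma-lineage cells Iglc3 was the lowest in 6 of 6 libraries, at 10.1% ± 7.43. Iglc1 held 58.8% ± 20.8 and Iglc2 31.1% ± 16.6 there, with few cells behind each sum. Without Smc3 wt/- replicate 2 the GC B-like shares were 47.04% ± 2.497, 16.6% ± 4.88 and 36.3% ± 4.54 (n = 5). The division between Iglc2 and Iglc3 carries the uncertainty of their shared sequence.

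**Figure D4:**
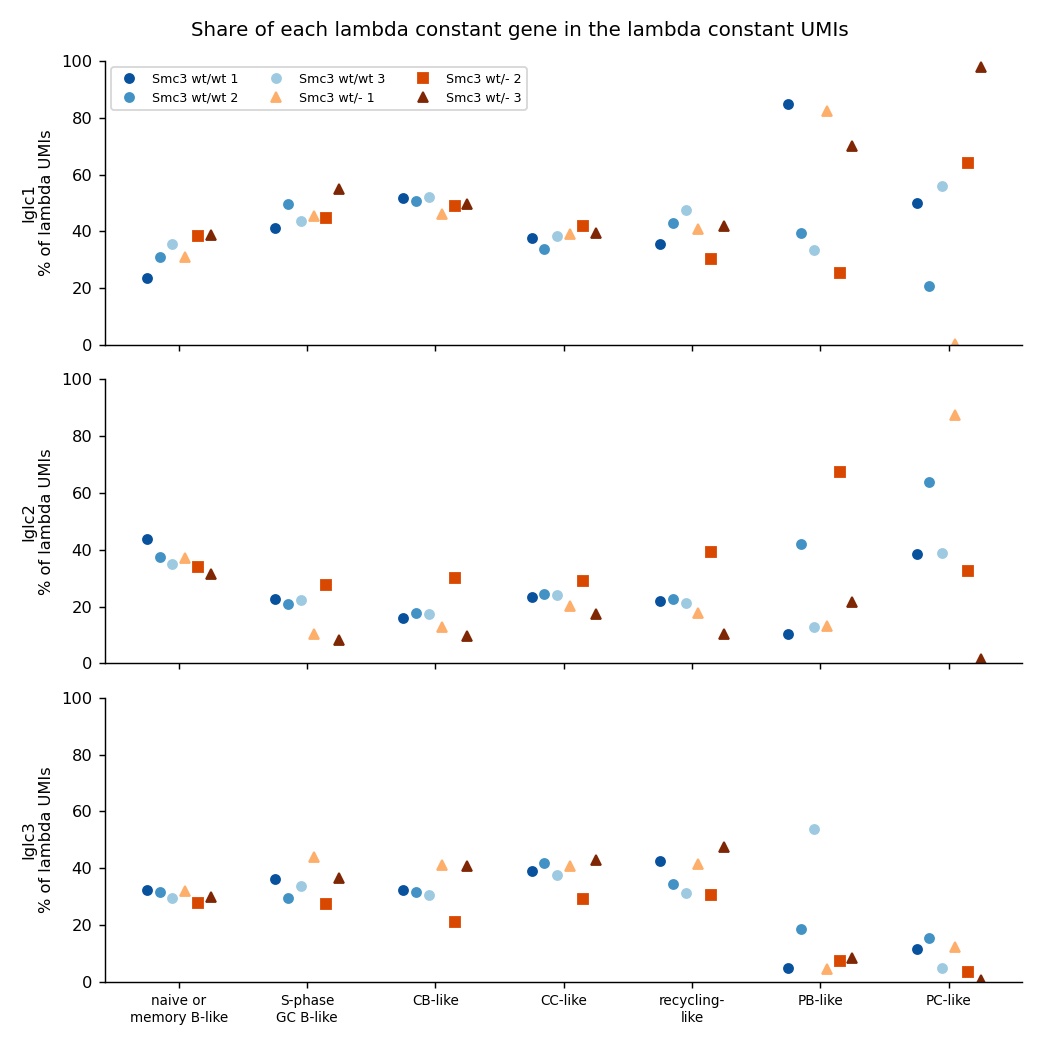
Percentages of the lambda constant UMIs held by Iglc1, Iglc2 and Iglc3 in each cell state, 1 point per library. Iglc2 goes from a mean of 36.5 percent in naive or memory B-like cells to 18.8 percent with the GC states pooled as GC B-like cells. With PB-like and PC-like cells pooled as plasma-lineage cells, Iglc3 is the lowest in all 6 libraries, at a mean of 10.1 percent.

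The composition also followed the call of the cell. In lambda-called GC B-like cells Iglc1 held 67.9% of lambda UMIs, Iglc2 16.5% and Iglc3 15.6%, and a single gene held at least 80% of them in 236 of 356 cells (66.3%). In kappa-called GC B-like cells with at least 5 lambda UMIs a single gene reached 80% in 1098 of 6593 (16.7%), and the shares were 38.4%, 15.8% and 45.8%. In mixed GC B-like cells a single gene reached 80% in 20.4% of cells, near the kappa-called value, while their shares were 49.9%, 20.3% and 29.8%, with Iglc1 and Iglc3 between the values of the other calls. Among naive or memory B-like cells, the lambda-called cells had Iglc1 at 58.7%, Iglc2 at 30.3% and Iglc3 at 11.1%, and the kappa-called cells 27.2%, 30.8% and 42.0%. The calls use the sum of these genes but not its division, and cells with more lambda UMIs give a less noisy division, so the depth behind the groups differs.

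In PC-like cells a single lambda gene held at least 80% in 60 of 60 lambda-called cells. Iglc1 led in 41 of them, Iglc2 in 18 and Iglc3 in 1. Over plasma-lineage cells the leading gene was Iglc1 in 57, Iglc2 in 29 and Iglc3 in 3 of 89 lambda-called cells, against 251, 54 and 51 of 356 lambda-called GC B-like cells and 52, 39 and 6 of 97 lambda-called naive cells. Of the 89 cells, 73 came from Smc3 wt/- replicate 2, so these counts are nearly those of 1 library. In kappa-called PC-like cells, whose lambda UMIs are few beside Igkc, Iglc2 held 62.0%, Iglc1 25.3% and Iglc3 12.7%, and 1310 of these 1375 cells came from the same library. Without it the shares in 65 kappa-called PC-like cells were 51.3%, 33.1% and 15.6%.

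Iglv1 was the most abundant of the lambda variable genes. Its level in PC-like cells was 2375, 918 and 886 in Smc3 wt/wt replicates 1 to 3 and 625, 1771 and 247 in Smc3 wt/- replicates 1 to 3 CPM. In PB-like cells it was 1103, 468 and 268 in Smc3 wt/wt replicates 1 to 3 and 428, 1059 and 317 in Smc3 wt/- replicates 1 to 3 CPM. GC B-like cells had 19.1, 11.3 and 8.39 in Smc3 wt/wt replicates 1 to 3 and 13.4, 87.7 and 7.95 in Smc3 wt/- replicates 1 to 3 CPM. PC-like cells exceeded GC B-like cells by 20.2 to 125 times and PB-like cells by 12.1 to 57.9 times, in 6 of 6 libraries each, and naive cells, at 6.95 to 74.95 CPM, exceeded GC B-like cells in 4 of 6. In GC B-like cells of Smc3 wt/- replicate 2, 1 cell held 27.2% of the Iglv1 UMIs, and T cell-like cells of that library had 159 CPM, above its GC B-like level.

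Iglv3 was lower but had the same order, with 333, 139.5 and 128 in Smc3 wt/wt replicates 1 to 3 and 104, 282 and 102 in Smc3 wt/- replicates 1 to 3 CPM in PC-like cells and 2.36 to 5.96 CPM in GC B-like cells. Its PC-like level was 36.1 to 87.3 times the GC B-like level, in 6 of 6 libraries. Iglv2 was close to absent: the libraries held 0, 5 and 6 Iglv2 UMIs in Smc3 wt/wt replicates 1 to 3 and 4, 309 and 4 in Smc3 wt/- replicates 1 to 3. The Iglv2 UMIs were thus almost all from the library rich in plasma cells, and no order between states was read from the others.

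Iglv1 was counted in kappa-called plasma cells as well as in lambda-called ones. Kappa-called PC-like cells had a mean of 27.1 Iglv1 UMIs per cell (median 15), with at least 1 in 95.5% of cells, and lambda-called PC-like cells a mean of 19.8 (median 11.5), with at least 1 in 98.3%. Over plasma-lineage cells the kappa-called mean was 18.3, 10.0 and 8.29 in Smc3 wt/wt replicates 1 to 3 and 5.84, 24.1 and 4.49 in Smc3 wt/- replicates 1 to 3. The lambda-called mean was 3, 0.667 and 11.4 and then 6, 17.5 and 1.67 in the same order, from 1 to 73 cells. The kappa-called mean was the higher in 4 of 6 libraries, so the groups overlapped and no difference in either direction held in all of them. In PC-like cells alone it was the higher in 4 of the 4 libraries that held both calls, where all but 6 of the 60 lambda-called cells came from Smc3 wt/- replicate 2. Set against the lambda constant UMIs of the same cells, Iglv1 had 342 UMIs per 1000 in kappa-called and 2.12 per 1000 in lambda-called PC-like cells. Iglv1 in kappa-called PC-like cells thus did not go along with a like count of lambda constant UMIs. In cells without a light chain of their own in Smc3 wt/- replicate 2, Iglv1 had 69 UMIs in 142 T cell-like and 197 UMIs in 646 myeloid-like cells, far below the plasma-lineage means.

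Iglv1 was also high beside the kappa variable genes. The 160 Igkv genes summed to 783, 527 and 331 in Smc3 wt/wt replicates 1 to 3 and 271, 909 and 620.3 in Smc3 wt/- replicates 1 to 3 CPM in PC-like cells, and Iglv1 alone exceeded this sum in 5 of 6 libraries in PC-like cells, in 6 of 6 in PB-like cells and in 0 of 6 in naive or GC B-like cells. In GC B-like cells the Igkv sum was 21.0 to 64.3 CPM outside Smc3 wt/- replicate 2. The Igkv genes followed the call: kappa-called PC-like cells had a mean of 14.1 Igkv UMIs and lambda-called ones 5.70. Their count was 1.79 per 1000 Igkc UMIs in kappa-called PC-like cells, similar to the 2.12 of Iglv1 per 1000 lambda constant UMIs in lambda-called ones. Many Igkv genes are close copies of each other, and reads that match several of them may not have been counted.

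Among lambda-called PC-like cells Iglv2 went with Iglc2. The 18 cells led by Iglc2 had a mean of 3.67 Iglv2 UMIs, with at least 1 in 61.1%, against 0.171 in the 41 cells led by Iglc1 and 0.103 in the 1375 kappa-called cells. In PB-like cells the means were 2.18 in 11 cells led by Iglc2 and 0.0625 in 16 led by Iglc1. Iglv1, in contrast, was not higher in cells led by Iglc1, the gene in its own cluster: its mean was 36.7 in the cells led by Iglc2 and 12.4 in those led by Iglc1. Of the 60 lambda-called PC-like cells, 54 came from Smc3 wt/- replicate 2, and Iglv1 and Iglv2 share most of their sequence, so the split between them is uncertain here too.

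**Figure D5:**
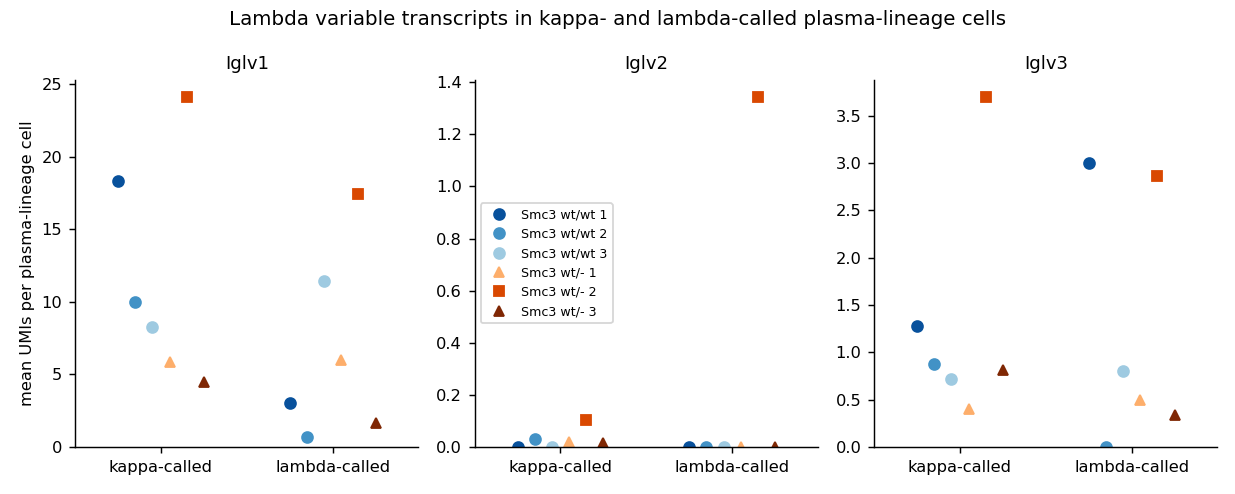
Mean UMIs of Iglv1, Iglv2 and Iglv3 per kappa-called and lambda-called plasma-lineage cell, with a panel for each gene and 1 point per library. For Iglv1 the kappa-called means run from 4.49 to 24.1 and the lambda-called means from 0.667 to 17.5, and the groups overlap.

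Correlations were taken across the 55 sums of a state in a library with at least 20 cells, on the log2 scale of CPM plus 10. Among genes that are not members, Igkc varied most closely with Jchain (r = 0.92), which joins antibody monomers into polymers. Next came Txndc5 (0.88), a protein disulfide isomerase, the heavy chain genes Ighg2b (0.82) and Igha (0.81), and Tnfrsf17 (0.78), the plasma cell survival receptor BCMA. Of the genes that are not members, those closest to the lambda constant sum were Txndc5 (0.84), Ighg2b (0.82), Mzb1 (0.82), a chaperone of antibody assembly, Gm30211 (0.82) and Ero1lb (0.76), an oxidase of the endoplasmic reticulum. Among the members, r was 0.88 between Igkc and the lambda sum, 0.89 between Iglc1 and Iglc2, 0.85 between Iglv1 and Igkc, 0.69 between Iglv1 and the lambda sum, and 0.35 between Iglv1 and Iglc3. These are descriptions, since the points share 6 libraries, the contrast of plasma-lineage with other states and the raised background of 1 library.

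The other light chain genes were little counted. No UMI of an Iglj or Igkj gene or of Vpreb2 was found in the kept cells, Igll1 had 5 and Vpreb1 41, both parts of the surrogate light chain of precursor B-cells, and Iglc4 had 117. Vpreb3, which is thought to act in light chain maturation, was the exception with 47200 UMIs, at 529 ± 80.9 (SD, n = 6) CPM in CB-like, 234 ± 56.4 in naive or memory B-like and 120 ± 37.5 in PB-like cells. Cd79a, the signalling partner of the surface receptor, was at 3090 ± 169 CPM in naive, 1632 ± 261 in CB-like and 705 ± 131 in PB-like cells. PC-like cells had 708 ± 38.1 CPM (SD, n = 2). With immunoglobulin UMIs left out, Cd79a was at 160% of the median over clusters in PC-like cells. It was then at 65.2% in PB-like cells and at 109% and 114% in the CB-like clusters, so it did not fall steadily as light chains rose. Mzb1 and Jchain were at 5444 ± 709.7 and 21972 ± 18567 CPM in PB-like cells.

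Whether the light chain genes differed between genotypes was tested on UMIs summed per library in naive or memory B-like, GC B-like and plasma-lineage cells, with edgeR's quasi-likelihood test over all genes. No member passed the adjusted threshold of 0.05 in any of them, but without the filter on low counts edgeR called 35 genes in naive or memory B-like cells, Iglv1 among them (log2 fold change 1.53, edgeR adjusted p = 0.00392). Of all genes tested, 0 of 7164 (0%), 0 of 10882 (0%) and 0 of 6033 (0%) passed, while 138, 183 and 178 had an unadjusted p under 0.05, and DESeq2 called 0, 2 and 0. Members that passed the filter on low counts were 5 in naive or memory B-like, 6 in GC B-like and 6 in plasma-lineage cells, with Iglv2 left out everywhere and Iglv3 in naive cells.

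In GC B-like cells the log2 fold change of Smc3 wt/- over Smc3 wt/wt was 0.59 (SE 0.40, 95% interval −0.35 to 1.53) for Igkc, 0.27 (SE 0.35) for Iglc1, 0.39 (SE 0.70) for Iglc2, 0.26 (SE 0.20) for Iglc3, 1.52 (SE 0.92) for Iglv1 and 0.28 (SE 0.42) for Iglv3, each with an edgeR adjusted p of 0.9999. These positive values came with Smc3 wt/- replicate 2. Without it Igkc was at −0.01 (SE 0.25) and Iglv1 at −0.21 (SE 0.30). Iglc2 turned to −1.10 (SE 0.17, 95% interval −1.50 to −0.70), with an unadjusted p of 0.000299 and an edgeR adjusted p of 0.763 over 11397 genes, of which 0% passed. The Iglc2 levels behind it were 388, 407 and 416 CPM for Smc3 wt/wt, then 233 and 153 CPM in Smc3 wt/- replicates 1 and 3, against 1098 CPM in replicate 2. The remaining Smc3 wt/- libraries were thus below and replicate 2 above every Smc3 wt/wt library, and the change did not pass the test over all genes.

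In naive or memory B-like cells the log2 fold changes were 0.35 (SE 0.37) for Igkc, 0.45 (SE 0.30) for Iglc1, −0.02 (SE 0.25) for Iglc2, 0.08 (SE 0.23) for Iglc3 and 1.52 (SE 0.77) for Iglv1, with an edgeR adjusted p of 0.99997 each, and Iglv1 was at −0.11 without Smc3 wt/- replicate 2. In plasma-lineage cells they were 1.75 (SE 1.31) for Igkc, 2.07 (SE 0.83) for Iglc1, 2.27 (SE 0.99) for Iglc2, 0.18 (SE 0.79) for Iglc3, 1.41 (SE 1.08) for Iglv1 and 2.41 (SE 1.19) for Iglv3, with edgeR adjusted p from 0.896 to 0.986. Without Smc3 wt/- replicate 2, where 1 of 6378 genes (0.0157%) passed, Ighg2c and no member, Igkc was at −0.54, Iglc3 at −0.64, Iglv1 at −1.26 and Iglv3 at −0.48. Iglc1 and Iglc2 were at 0.97 and 0.88. The 95% intervals in the fit of all libraries held 0 for Igkc (−1.24 to 4.74), Iglc3, Iglv1 and Iglv3, but ran from 0.16 to 3.97 for Iglc1 and from 0.01 to 4.53 for Iglc2, neither of which passed after adjustment over all genes. PC-like cells, which have more Igkc than PB-like cells, were 1369 of 1738 plasma-lineage cells in Smc3 wt/- replicate 2, 10 of 62 in replicate 1 and 14 of 82 in replicate 3. For Smc3 wt/wt replicates 1 to 3 the counts were 10 of 34, 16 of 71 and 22 of 79. The part of this mix in the fold changes was not tested.

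The lambda share was compared between genotypes by exact two-sided permutation tests over libraries, whose smallest p with 3 against 3 is 0.1. The lambda share of UMIs in GC B-like cells was 18.0% ± 0.913 in Smc3 wt/wt and 15.3% ± 1.43 in Smc3 wt/- (SD, n = 3 each). The groups did not overlap, the difference was −2.77 points (exact permutation p = 0.1, adjusted p = 0.4 over the 6 shares tested), and the mean over cells of the share per cell differed by −1.24 points (exact permutation p = 0.7). The gap between the groups rested on 1 cell of Smc3 wt/- replicate 2. Without the cell with the most light chain constant UMIs in each library, that library was at 17.7%, within the 17.5% to 19.3% of the Smc3 wt/wt libraries, and the difference was −1.95 points (exact permutation p = 0.3). In naive or memory B-like cells the shares of UMIs were 31.2% ± 2.75 and 28.7% ± 2.88 (exact permutation p = 0.4, adjusted p = 0.6, n = 3 each). In plasma-lineage cells they were 6.54% ± 3.90 and 12.5% ± 6.75 (exact permutation p = 0.2, adjusted p = 0.4, n = 3 each), and the mean over cells of the share per cell differed by 0.0893 points. The shares of lambda-called cells were 4.24% ± 1.16 and 2.98% ± 0.671 in GC B-like (exact permutation p = 0.2), 17.6% ± 8.25 and 14.0% ± 7.05 in naive (exact p = 0.7) and 4.603% ± 1.75 and 4.89% ± 1.45 in plasma-lineage cells (exact p = 0.9), with adjusted p of 0.4, 0.84 and 0.9. Within a sex the groups hold 1 or 2 libraries each, and the shares were not tested with sex taken into account. An edgeR fit with sex as a covariate called 0 genes in each of the 3 classes, with 144, 467 and 532 at an unadjusted p under 0.05 in naive, GC B-like and plasma-lineage cells.

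Other genes of the light chain pathway gave the same picture between genotypes. Of the 15 genes of light chain transcription and rearrangement, which include Irf4, Spib and Pou2af1, 13 were tested in GC B-like cells and 0 were called, with a median log2 fold change of −0.12 against −0.00 over all genes, from −0.27 (Pou2af1) to 0.89 (Irf4). Irf4 was at −0.17 without Smc3 wt/- replicate 2. All 15 antibody assembly genes, chaperones and folding enzymes of the endoplasmic reticulum, were tested there and 0 were called, with a median of 0.30, from −0.26 (Dnajb9) to 0.96 (Pdia4). Without Smc3 wt/- replicate 2 the median was 0.05 and Pdia4 was at 0.058. For naive or memory B-like cells 13 and 14 of these genes were tested and 0 were called, with medians of −0.08 and 0.07 against 0.00 over all genes. Jchain was at 1.77 there (edgeR adjusted p = 0.99997) and at 0.21 without Smc3 wt/- replicate 2, and it was called, at 1.78 with an edgeR adjusted p of 1.05e-08, where no low-count filter was used. In plasma-lineage cells 11 and 15 were tested and 0 were called, with medians of 0.16 and 0.11 against 0.01 over all genes. The receptor partners Cd79a, Cd79b, Ighm and Ighd had 4, 4 and 3 tested members in GC B-like, naive and plasma-lineage cells, 0 called, and medians of 0.22, −0.00 and 0.70, or 0.083, −0.06 and 0.18 without Smc3 wt/- replicate 2. Smc3 itself had a log2 fold change of −0.08 (SE 0.14), −0.08 (SE 0.22) and −0.27 (SE 0.26) in GC B-like, naive and plasma-lineage cells, with edgeR adjusted p from 0.901 to 0.99997.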

How the data were processed

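The authors prepared 3′ single cell libraries on the 10x Genomics Chromium platform, processed them with Cell Ranger, and deposited UMI counts per gene and barcode, not normalized. The submitters' processing notes name mm10, Cell Ranger, R 4.0.2 and Seurat 4.0.0, and how reads that match several genes were treated was not given in the sources used here. Genotype and replicate number were taken from the labels. The study used more wild-type mice than the 3 libraries analysed here.

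Barcodes with at least 500 genes and at most 10% mitochondrial UMIs were kept (21568 of 22939), and the 759 with the highest Scrublet scores were removed as doublets (3.52%, at 0.8% per 1000 barcodes), which left 20809. The median depth per library was 3313 to 6219 UMIs per kept cell. Clusters came from Seurat 5.3.0 under R 4.3.3 (reciprocal PCA, 1893 variable genes without immunoglobulin genes, 30 components, 20 neighbours, resolution 0.5), which gave 16 clusters. Clusters were named from marker lists by a rule set once the clusters were known, so names were rebuilt here and values may differ from the study's for that reason. UMIs were summed per library and state and tested with edgeR 4.0.16 (TMM, filterByExpr, quasi-likelihood test, Benjamini-Hochberg adjustment over all genes at 0.05), which was tested on simulated data. Shares used exact permutation tests over libraries, and intervals are exact (Clopper-Pearson, 95%) and cover counting error only. States were compared by values per library without a test, since the same cells define them. Sequences and coordinates were read from GENCODE M21 (GRCm38).

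The members and lists were chosen with earlier results of these data known. The named genes were the 7 members, other light chain genes, lists of light chain transcription, antibody assembly and receptor partners, of which the highest and lowest genes are named, and the 5 genes most like Igkc and like the lambda sum.

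Replicate numbers are shared between the genotypes. Deviations from the group means of same-numbered libraries correlated at r = 0.226, 0.0925 and 0.199 in GC B-like, 0.325, 0.244 and 0.111 in naive or memory B-like and 0.118, 0.0487 and 0.157 in plasma-lineage cells. Every same-numbered pair was over 0.1 only in naive or memory B-like cells. Even there Smc3 wt/wt replicate 3 correlated more with Smc3 wt/- replicate 2 (r = 0.134) than with replicate 3. The numbers thus did not clearly pair the libraries in any class. Alternatives were DESeq2 1.42.0, RLE size factors, no filter on low counts, scaling without immunoglobulin genes, the replicate number as a block, sex as a covariate, doublets kept, a resolution of 1, other limits of the calls, and leaving out each library. Values by state without Smc3 wt/- replicate 2 and shares without the cell richest in light chain UMIs were additions chosen after seeing the data.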

Additional observations from a re-analysis of the deposited data

How the results depend on the processing

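Of 117 alternatives to the shares and counts of called genes, 108 kept the sign of the share difference or the count of 0 called genes. Another 4 moved a count and 5 reversed a share. A share was judged by its sign alone, without a threshold on p. The lambda share of UMIs in GC B-like cells kept its sign in every alternative run, with a difference of −3.53 to −2.11 points when a library was left out, and that in plasma-lineage cells ran from 2.45 to 9.17 points. The share of UMIs in naive or memory B-like cells ran from −4.09 to −0.959 points, and it reversed to 1.12 points with doublets kept. The lambda-called share in naive or memory B-like cells ran from −6.83 to 1.13 points and reversed without Smc3 wt/wt replicate 1 (1.13) and without Smc3 wt/- replicate 2 (0.165). The lambda-called share in plasma-lineage cells ran from −0.545 to 1.23 points and reversed without Smc3 wt/wt replicate 1 (−0.499) and without Smc3 wt/- replicate 1 (−0.545). In GC B-like cells it ran from −1.72 to −0.612 points. Where a library is left out the comparison rests on fewer samples, and for doublets the cause was not tested.

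DESeq2 called 2 genes in GC B-like cells, Ifi27 and Ddah2, neither a member. Without the filter on low counts edgeR called 35 genes in naive or memory B-like cells and 4 in plasma-lineage cells (Igkv14-111, Ighv5-2, Gm13075 and Dqx1). Among the 35 were Jchain and Iglv1 (log2 fold change 1.53, edgeR adjusted p = 0.00392, 0.00392 to 0.99999 over its alternatives). Leaving out a library gave 0 to 1 calls in plasma-lineage cells (Ighg2c, without Smc3 wt/- replicate 2) and 0 in the other classes.

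When a library was left out, the log2 fold changes in GC B-like cells ran from −0.0083 to 0.84 for Igkc, −0.27 to 0.48 for Iglc1, −1.10 to 0.84 for Iglc2, 0.018 to 0.40 for Iglc3, −0.21 to 2.09 for Iglv1 and −0.054 to 0.59 for Iglv3. For naive or memory B-like cells they ran from 0.048 to 0.49 for Igkc, 0.21 to 0.67 for Iglc1, −0.21 to 0.073 for Iglc2, −0.040 to 0.18 for Iglc3 and −0.11 to 1.96 for Iglv1. In plasma-lineage cells they ran from −0.54 to 2.25 for Igkc, 0.97 to 2.49 for Iglc1, 0.88 to 2.98 for Iglc2, −0.64 to 1.34 for Iglc3, −1.26 to 2.17 for Iglv1 and −0.48 to 2.97 for Iglv3. The lowest value of each range came without Smc3 wt/- replicate 2. With sex as a covariate Iglc2 was at 0.083 in naive or memory B-like cells, and with doublets kept Iglc1 was at 1.33 there, against 0.45 without them (edgeR adjusted p = 0.99991).

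With the replicate block 0 genes were called in GC B-like, naive and plasma-lineage cells, and 268, 220 and 231 had an unadjusted p under 0.05. Iglc2 in GC B-like cells reversed to −0.25 under the replicate block, and in plasma-lineage cells Igkc, Iglv1 and Iglv3 were at 0.51, 0.11 and 0.94. In naive cells Iglc1 was at 0.42 under it (edgeR adjusted p = 0.99992) and no call changed. The numbers did not clearly pair the libraries in any of these classes. The exact paired sign-flip permutation tests of the shares cannot go below p = 0.25.

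The number of cells limits lambda calls in plasma-lineage cells, where 5 libraries of 34 to 82 such cells gave 1 to 5 lambda-called cells each. Depth left few cells below the limit of the calls: 13 of 1860 naive and 0 of 2066 plasma-lineage cells had under 10 light chain constant UMIs. The split of UMIs between Iglc2 and Iglc3, and between Iglv1 and Iglv2, rests on how shared sequence was counted, which was not tested.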
